A study of Sus scrofa with 105 samples.

Results

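MicroRNAs were compared between the frontal lobe of piglets 1 week after diffuse traumatic brain injury and the frontal lobe of sham or naive piglets. The comparison uses 33 of the 105 libraries of the series, 15 from injured animals and 18 from sham or naive animals. They were chosen by the brain region and the group name in the labels, and every column of the count table was matched to a sample by its title. All 33 animals were female Sus scrofa and received no drug. Injured animals survived 6 to 8 days, whereas the survival given for sham or naive animals spans 0 to 8 days. The labels name sham and naive animals as 1 group, so the controls cannot be divided by procedure, and the sources used here state no age for the animals. A further 2 sets of libraries were used beside these: 10 frontal libraries of untreated injured females at 1 day, and the hippocampus and amygdala libraries of the same 33 animals. The 9 frontal libraries of injured animals given cyclosporine A entered the model only to estimate the spread. RNA had been extracted from fixed, paraffin-embedded tissue, and libraries had been prepared with the QIAseq miRNA kit.

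A microRNA (miRNA) is a short RNA cut from a hairpin precursor. One arm of the hairpin, named 5p or 3p, is usually kept in far larger amounts than the other, and it guides Argonaute proteins to partly complementary messenger RNAs, which are then less translated or degraded. Many miRNAs are typical of 1 cell type: in brain, miR-124 and miR-9 are typical of neurons, miR-219 and miR-338 of oligodendrocytes, miR-126 of endothelium, and miR-142 and miR-223 of blood-derived cells. After injury to the brain, miR-21, miR-155 and the miR-146 family are among those most often studied, as regulators of survival and inflammatory signalling.

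The deposited counts cover 457 mature names, of which 368 had at least 1 count in the 33 libraries and 293 passed the filter on low counts. Levels are given as CPM, counts per 1000000 scaled with TMM factors. Library totals ran from 98996 to 13194782 counts in sham or naive animals (median 4768190) and from 2450177 to 11645571 at 1 week (median 6957558). The geometric mean total was 1.67 times as high at 1 week, which did not pass a 2-sided permutation test (p = 0.116, adjusted p = 0.116 over 4 such comparisons of totals). The smallest totals all belonged to sham replicates: 98996 in replicate 15, 689899 in replicate 16 and 1528731 in replicate 10. In sham replicate 15 a single count is worth 15.6 CPM, against 0.0624 CPM in sham replicate 18. The let-7 and miR-98 family took 78.7% ± 3.52 (SD, n = 18) of all counts in sham animals and 76.9% ± 4.86 (n = 15) at 1 week. Markers of brain cells were present in every library: 5 neuronal miRNAs summed to between 29545 and 45492 CPM in sham animals and between 29617 and 45606 CPM at 1 week. The 4 leukocyte miRNAs summed to 109 to 220.1 CPM and to 122 to 179 CPM, 3 erythrocyte miRNAs to 47.9 to 311 CPM and to 89.3 to 185 CPM, and 3 epithelial and choroid plexus miRNAs to 54.6 to 505 CPM and to 46.2 to 360.1 CPM. The 5 skeletal muscle miRNAs summed to 77.9 to 269 CPM and to 114 to 259 CPM. Of the liver markers, miR-122-3p was at 0 in all 33 libraries. The other, miR-122-5p, was present in every library, from 38.2 to 189 CPM in sham animals and from 41.1 to 100 CPM at 1 week. In bulk tissue, fewer cells of a type and less miRNA per cell cannot be told apart.

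Animal codes in the library names carry either no letter or the letter U, B, F or I, and begin with a number from 10 to 17; the sources used here do not say what these stand for. Of the 15 injured animals at 1 week, 9 had the letter U and 6 had none. The 18 sham or naive animals had the letter U in 6 cases, no letter in 5, B in 2, F in 2 and I in 3. Totals differed along with these codes, as the plot of library totals shows. Among letter U animals, totals at 1 week ran from 6120287 to 11645571 and in sham animals from 3895343 to 7594599, a ratio of geometric means of 1.61 (exact permutation test, 9 against 6, p = 0.0030, adjusted p = 0.0120). Among animals without a letter the ratio was 2.64 and did not pass (exact permutation test, 6 against 5, p = 0.113, adjusted p = 0.116).

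**Figure D1:**
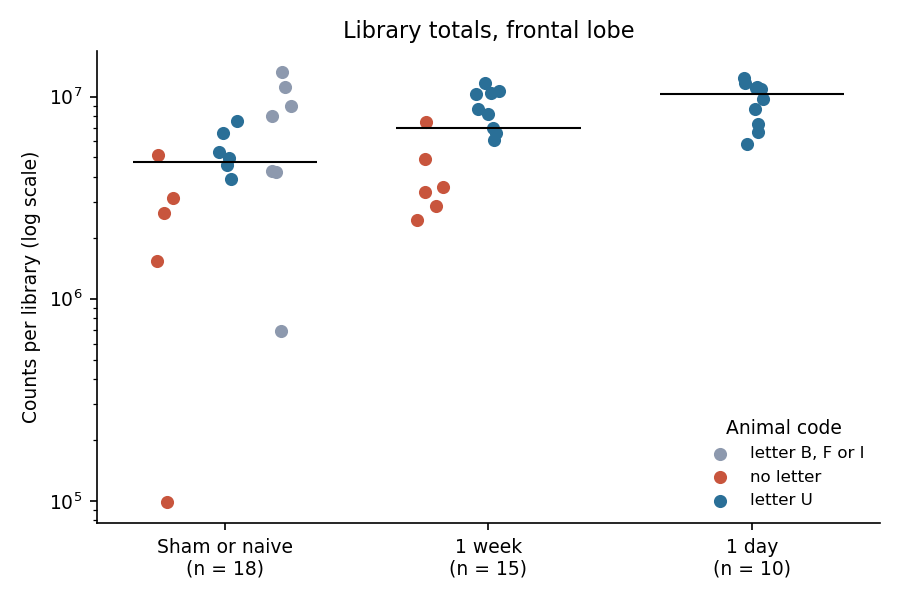
Counts per frontal library (log scale) by group, each point 1 animal, coloured by the letter in its animal code, with the group median as a line. The 1 week libraries fall between 2450177 and 11645571 counts and none has the letter B, F or I, whereas the 3 smallest sham libraries hold 98996, 689899 and 1528731 counts.

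With all 33 animals together, no miRNA differed between 1 week and sham or naive frontal lobe at an adjusted p under 0.05 (0 of 293, 0% called, edgeR quasi-likelihood test with Benjamini-Hochberg adjustment). An unadjusted p under 0.05 was reached by 20 miRNAs (6.83%), of which 12 had a higher and 8 a lower estimate at 1 week. The median log2 difference over the 293 miRNAs was 0.01, and 156 estimates were above 0 and 137 below. The differences were also bounded. The 95% interval of a typical miRNA reached 0.29 on the log2 scale to either side of its estimate, a factor of 1.23. For 220 of the 293 miRNAs the whole interval lay within a 1.5-fold change in either direction, and for 268 within a 2-fold change. Only 3 estimates were 2-fold or larger. No miRNA was called without the 3 smallest sham libraries either. DESeq2 called 1, miR-10386 (adjusted p = 0.0481), and limma voom with quality weights, which counts unusual libraries less, called 52, 29 higher and 23 lower. Sham libraries varied more among themselves: the SD of log2(CPM + 1) was larger in the sham group for 228 of the 293 miRNAs. Its median was 0.52 against 0.39 at 1 week. The sham group includes the 3 smallest libraries and the letters B, F and I, and the SD was not worked out without them.

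The largest of these estimates rested on few libraries. For miR-10386 the sham values ran from 31.3 CPM through a median of 334 to 13546, and the 1 week values from 35.7 through 106 to 1395. Sham replicates 16 and 15, the smallest libraries of the group, held the highest sham values, and all 1 week values lay inside the sham range. The log2 difference was -2.34 ± 0.74 (SE, edgeR, adjusted p = 0.393), and it was -0.19 with sham replicates 10, 15 and 16 left out. In letter U animals, which include none of these libraries, the difference was -2.63 to -2.12 in fits that left out 1 library. miR-574-5p ran from 109.9 through 258 to 15294 CPM in sham animals and from 120.1 through 153 to 1057 at 1 week, and its highest value was that of sham replicate 15. Its difference of -1.78 ± 0.56 (adjusted p = 0.393) became 0.10 without that 1 library. miR-4331-3p, with 2.93 through 14.5 to 1277 CPM in sham animals and 2.94 through 6.57 to 70.8 at 1 week, was also highest in sham replicates 15 and 16. It differed by -1.93 ± 0.69 (adjusted p = 0.509) with all animals and by -0.64 without sham replicate 15.

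Smaller differences were spread over many animals. miR-21-5p, which is raised in many injured tissues and favours cell survival, ran from 57.5 CPM through a median of 93.5 to 168 in sham animals and from 91.6 through 129.5 to 171 at 1 week. As many as 14 of the 15 injured animals lay above the sham median, and the highest values of both groups were alike. The log2 difference was 0.31 ± 0.12 (edgeR, adjusted p = 0.536, unadjusted p = 0.0162), and it stayed at 0.30 to 0.34 when sham replicate 15, or sham replicates 10, 15 and 16, were left out. miR-187 ran from 280.3 through 418 to 591 CPM in sham animals and from 315 through 516 to 779.8 at 1 week, with 12 of 15 injured animals above the sham median. Its difference was 0.30 ± 0.10 (adjusted p = 0.479). miR-532-5p (260.3 through 477 to 601 CPM against 342 through 557 to 704) and miR-503 (104 through 179.8 to 221 CPM against 161 through 201 to 242) each had 10 of 15 injured animals above the sham median. Their log2 differences were 0.26 and 0.21, both with an adjusted p of 0.536. Against these, miR-9858-5p was low at 1 week in every animal relative to the sham median of 14.4 CPM, with 3.99 through 10.9 to 14.3 CPM. Its sham range of 7.04 to 31.1 CPM enclosed most of these values, and the top of that range is 2 counts in sham replicate 15. The difference was -0.39 ± 0.17 (adjusted p = 0.536). None of these passed the adjusted threshold with all animals. With the letter in the animal code as a block, over the 26 animals with the letter U or none, miR-21-5p, miR-187 and miR-9858-5p passed (0.44, 0.36 and -0.63, each with an adjusted p of 0.0397).

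**Figure D2:**
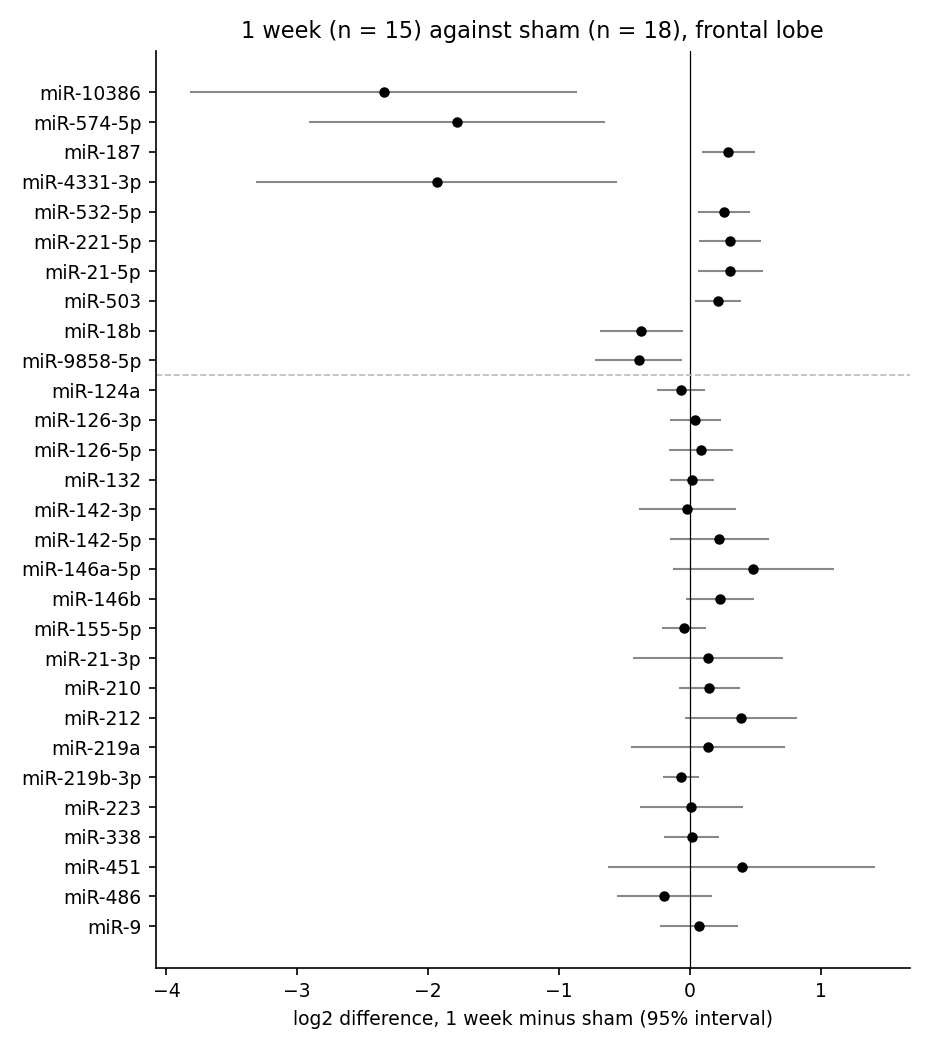
Log2 difference between 1 week (n = 15) and sham or naive (n = 18) frontal lobe with 95% intervals. Above the dashed line are the 10 miRNAs with the smallest p and a mean of at least 10 CPM, below it the other miRNAs of the panel of injury and cell type miRNAs; miR-21-5p, a panel member, stands above the line. Every interval below the dashed line includes 0, and no miRNA shown passed the adjusted threshold.

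Neuronal miRNAs were not called with all animals, while 2 of them were with the letter as a block. miR-124a, which promotes and maintains neuronal identity, ran from 6157 CPM through 9875 to 12241 in sham animals and from 6944 through 9206 to 13072 at 1 week. These ranges coincide almost fully, and the log2 difference of -0.07 had a 95% interval of -0.25 to 0.12. miR-9, made in neural progenitors and neurons, ran from 5357 through 7049 to 20709.8 CPM and from 4995 through 9069.9 to 13952 CPM, a difference of 0.07 (interval -0.23 to 0.37). miR-132 and miR-212 are cut from neighbouring hairpins whose transcription follows neuronal activity through CREB. miR-132 had the same median of 174 CPM in both groups (difference 0.02, interval -0.15 to 0.19). The scarcer miR-212 had medians of 7.76 and 11.3 CPM (difference 0.39, interval -0.03 to 0.82, adjusted p = 0.759). miR-138, which limits dendritic spine size, had an unadjusted p of 0.0256 and a difference of 0.21, from 5918 through 8458 to 11736 CPM in sham animals and from 6459 through 10298 to 13718 at 1 week. Over the 13 tested members of the neuron-enriched list, 7 estimates were above 0 and the median log2 difference was 0.04, beside 0.01 over all miRNAs. With the letter as a block miR-9 (0.42) and miR-138 (0.30) passed, both with an adjusted p of 0.0397, and with quality weights in limma voom they passed as well (0.34 and 0.37), as did miR-212 (0.59). miR-124a and miR-132 passed in neither.

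Inflammatory and blood-cell miRNAs were not called with all animals either. miR-155-5p, which promotes inflammatory activation of myeloid cells, had medians of 277 and 259 CPM and a difference of -0.04 (interval -0.21 to 0.13). miR-146b, which dampens signalling through NF-kB, ran from 0 through 25.8 to 36.1 CPM in sham animals and from 15.1 through 31.4 to 41.0 at 1 week (difference 0.23, interval -0.03 to 0.49). miR-146a-5p was close to the detection limit, with medians of 1.42 and 1.95 CPM and an interval of -0.13 to 1.10. The myeloid and lymphoid miR-142-3p and miR-142-5p differed by -0.02 and 0.23, and the neutrophil and monocyte miR-223 by 0.01. Among the 14 tested members of the microglia and inflammation list, 9 estimates were above 0 and the median was 0.09. One of these, miR-125a, passed with the letter as a block (-0.24, adjusted p = 0.0455), besides miR-21-5p. The erythroid miR-451 and miR-486 differed by 0.40 and -0.19, with wide intervals of -0.63 to 1.42 and -0.56 to 0.17.

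Oligodendrocyte miRNAs were likewise close between the groups. miR-338, which promotes oligodendrocyte maturation, had medians of 1209.6 and 1267 CPM (difference 0.01, interval -0.20 to 0.22), and miR-219b-3p had medians of 415 and 371 CPM (difference -0.06, interval -0.20 to 0.07). miR-219a was scarce, with means of 1.74 and 2.20 CPM. The 6 tested members of the oligodendrocyte and myelin list had a median of 0.09, with 5 estimates above 0. miR-210, which is induced by hypoxia, had medians of 44.8 and 49.9 CPM and a difference of 0.15 (interval -0.08 to 0.38).

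Vascular miRNAs had small differences, mostly in 1 direction. Of 17 tested members of the endothelial and mural list, 15 had an estimate above 0, with a median log2 difference of 0.11, and 6 had an unadjusted p under 0.05 (background 6.83%), while 0 passed after adjustment. These 6 were miR-221-5p, miR-222, miR-143-3p, miR-503 and miR-133a-3p with positive estimates and miR-199a-5p with a negative one; miR-133a-3p is better known from muscle. miR-221 and miR-222, neighbours on 1 transcript that act on smooth muscle proliferation, differed by 0.31 (miR-221-5p), 0.11 (miR-221-3p) and 0.25 (miR-222). miR-222 ran from 13.9 through 25.4 to 31.1 CPM in sham animals and from 16.5 through 29.6 to 37.3 at 1 week, with 11 of 15 injured animals above the sham median. miR-143-3p, typical of smooth muscle and pericytes, ran from 1495 through 2823 to 4881 CPM and from 1967 through 3635 to 4858 CPM, a difference of 0.31 ± 0.13 (adjusted p = 0.536), which passed with the letter as a block (0.44). Its cluster neighbour miR-145-5p differed by 0.14. The endothelial miR-126-3p, with medians of 4867 and 5386 CPM, differed by 0.04 (interval -0.15 to 0.24).

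Other lists were read in the same way. Astrocyte-associated miRNAs had 10 of 11 estimates above 0 and a median of 0.09. The let-7 and miR-98 family had 3 of 10 above 0 and a median of -0.04. The miR-30 family had 8 of 10 above 0 and a median of 0.04, although 4 of 10 and -0.14 in letter U animals, and miRNAs encoded in the imprinted DLK1-DIO3 locus had 9 of 18 above 0 and a median of -0.01. Among 28 miRNAs reported in traumatic brain injury, 17 were above 0 and the median was 0.04. No member of any list passed after adjustment with all animals. Epithelial and choroid plexus miRNAs stood lowest, with a median of -0.60 and 1 of 8 estimates above 0. Within this list miR-141, miR-96-5p, miR-182, miR-429 and miR-183 were at -0.84 to -0.55, whereas miR-204 was at -0.03 and miR-34c at 0.38. Levels in this list were also the most uneven between animals. miR-182, for example, ran from 0 through 57.0 to 848 CPM in sham animals and from 1.44 through 5.37 to 873 at 1 week (difference -0.64, interval -2.39 to 1.10). The direction of this list was not stable: in letter U animals 6 of 6 tested members were above 0, with a median of 0.98 and none called, and without a letter the median was 0.04. Leaving out 1 library moved miR-182 from -1.38 (without 1 week replicate 6) to -0.34 (without sham replicate 18).

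Among hairpins that lie within 10000 bases of each other in the RefSeq annotation of Sscrofa11.1, 19 groups had at least 3 tested miRNAs, and those described were chosen after their values were seen. All 5 tested miRNAs of the group with miR-106a, miR-18b, miR-20b, miR-19b and miR-92a had negative estimates (median -0.13), but in letter U animals 3 of the 5 were positive (median 0.14). miR-182, miR-183 and miR-96-5p, 3 negative estimates with a median of -0.64, had both tested members positive in letter U animals (median 0.96). In the group of miR-450b, miR-450c and miR-542, 5 of 6 were positive (median 0.10) with all animals and with letter U, and in that of let-7e, miR-125a and miR-99b all 3 were negative (median -0.15) in both. Every one of these estimates was uncalled with all animals.

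The comparison came out otherwise when it was restricted to animals with the letter U, a restriction added after the data were seen. Among 9 injured and 6 sham animals, 66 of 279 miRNAs passed an adjusted p of 0.05 (23.7%), 28 higher at 1 week (10.0%) and 38 lower (13.6%). The changes ran from 1.21-fold to 2.51-fold among those higher and from 1.20-fold to 5.53-fold among those lower, with miR-20a-3p and miR-10386 at the upper ends. Since miR-9 is listed under 3 names with nearly the same counts, 64 distinct miRNAs were involved, 26 higher and 38 lower. Library totals in the same animals differed by the factor of 1.61 given above. With the log10 total as a covariate, all 66 kept their direction and 2 passed (0.717%), let-7e and miR-92b-5p. With only libraries under 9000000 counts, 6 sham against 5 injured, 15 passed. With only codes that start with 14, 3 sham against 6 injured animals of the same libraries, 17 of 281 passed (6.05%), all lower at 1 week. Leaving out 1 library at a time gave between 46 (without 1 week replicate 12) and 74 (without 1 week replicate 14). Most of these injured animals share the stem of their code, the part before the hyphen, with another injured animal. The sham animals with the letter U all have different stems, none of them found among the injured. All animals were treated as independent, and a fit without 1 library keeps the other animal of its stem.

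let-7e had the smallest adjusted p among letter U animals. It is a member of the let-7 family, which restrains growth and is kept at high levels in differentiated cells. Its level ran from 46481 CPM through 52898 to 67148 in the 6 sham animals and from 29762 through 34989 to 38628 in the 9 injured animals. The groups did not overlap, and the log2 difference was -0.68 ± 0.09 (edgeR, adjusted p = 8.12e-05). let-7a, let-7c and let-7f-5p also fell, by 0.32, 0.44 and 0.30 on the log2 scale, and the family's share of all counts was 79.1% ± 1.66 (n = 6) in sham and 74.5% ± 2.13 (n = 9) in injured animals. Close family members can share reads, so single let-7 values are uncertain. With the family left out of the counts altogether, 68 of the remaining miRNAs passed.

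Further miRNAs that fell in letter U animals were mostly less abundant. miR-10386 ran from 217 through 287 to 926 CPM in sham and from 35.7 through 73.5 to 152 CPM in injured animals, without overlap (-2.47 ± 0.42, adjusted p = 0.0013). miR-193a-5p ran from 37.7 through 50.6 to 65.4 CPM and from 14.3 through 25.8 to 35.3 CPM, again without overlap (-1.05 ± 0.18, adjusted p = 0.0005). miR-92b-5p, the minor arm of its hairpin, ran from 8.28 through 10.3 to 19.3 CPM and from 3.33 through 5.10 to 8.52 CPM; these ranges touched, and the difference was -1.18 ± 0.21 (adjusted p = 0.0005). The remaining large decreases were those of miR-1285 (-0.96), miR-4331-3p (-0.94), miR-885-3p (-0.92), miR-423-5p (-0.90), miR-769-3p (-0.84), miR-296-3p (-0.80) and miR-139-3p (-0.75). miR-486, abundant in red cells, fell by 0.45. The other tested members of the erythrocyte list were not called and went both ways, miR-451 at -0.14, miR-16 at 0.09 and miR-363 at 0.60, so that the median of the 4 was -0.02. The part of blood was not tested.

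Increases in letter U animals included some neuronal, glial and vascular miRNAs, while other members of those lists were not called. miR-212 ran from 3.31 CPM through 6.56 to 9.70 in sham and from 7.05 through 11.3 to 16.1 in injured animals, with 6 of 9 injured animals above every sham animal (0.82 ± 0.23, adjusted p = 0.0134). miR-27a, expressed in glia and endothelium, ran from 21.4 through 25.9 to 31.4 CPM and from 32.1 through 37.1 to 57.9 CPM without overlap (0.66 ± 0.15, adjusted p = 0.0037). miR-9 ran from 6316 through 6982 to 8634 CPM and from 8267 through 10281 to 11239 CPM, with 6 of the 9 injured animals above every sham animal (0.43 ± 0.10, adjusted p = 0.0034). miR-138 and miR-187 rose by 0.38 and 0.43 on the log2 scale. miR-143-3p rose by 0.49, and miR-424-5p, which is transcribed together with miR-503 and acts in endothelium, by 0.47. miR-505, miR-450c-3p, miR-17-3p, miR-30b-5p, miR-30c-5p and miR-23b completed the 10 largest increases among miRNAs with at least 10 CPM, at 0.45 to 0.70. Leaving out 1 library ended the call of miR-505 in 8 of 15 cases (adjusted p up to 0.0762, without sham replicate 11) and that of miR-450c-3p in 7 (up to 0.0883, without sham replicate 3). The scarce miR-20a-3p ran from 0.594 through 1.5 to 1.95 CPM in sham and from 2.19 through 3.30 to 6.59 CPM in injured animals, without overlap (1.33, adjusted p = 0.0034). By list, beside 10.0% higher and 13.6% lower over all miRNAs, 4 of 11 astrocyte-associated and 3 of 17 endothelial and mural miRNAs rose (the latter miR-143-3p, miR-424-5p and miR-133a-3p) and none fell. miR-143-3p is a member of both these lists. Of 13 neuron-enriched miRNAs 2 rose and none fell, with 8 estimates above 0 and a median log2 difference of 0.01. Of 6 oligodendrocyte and myelin miRNAs none was called. Of 14 microglia and inflammation miRNAs 1 rose and 2 fell. Differences between lists were not tested. miR-21-5p, at 0.37, did not pass in this subset (adjusted p = 0.0953), nor did miR-155-5p (-0.26) or miR-124a (-0.29).

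**Figure D3:**
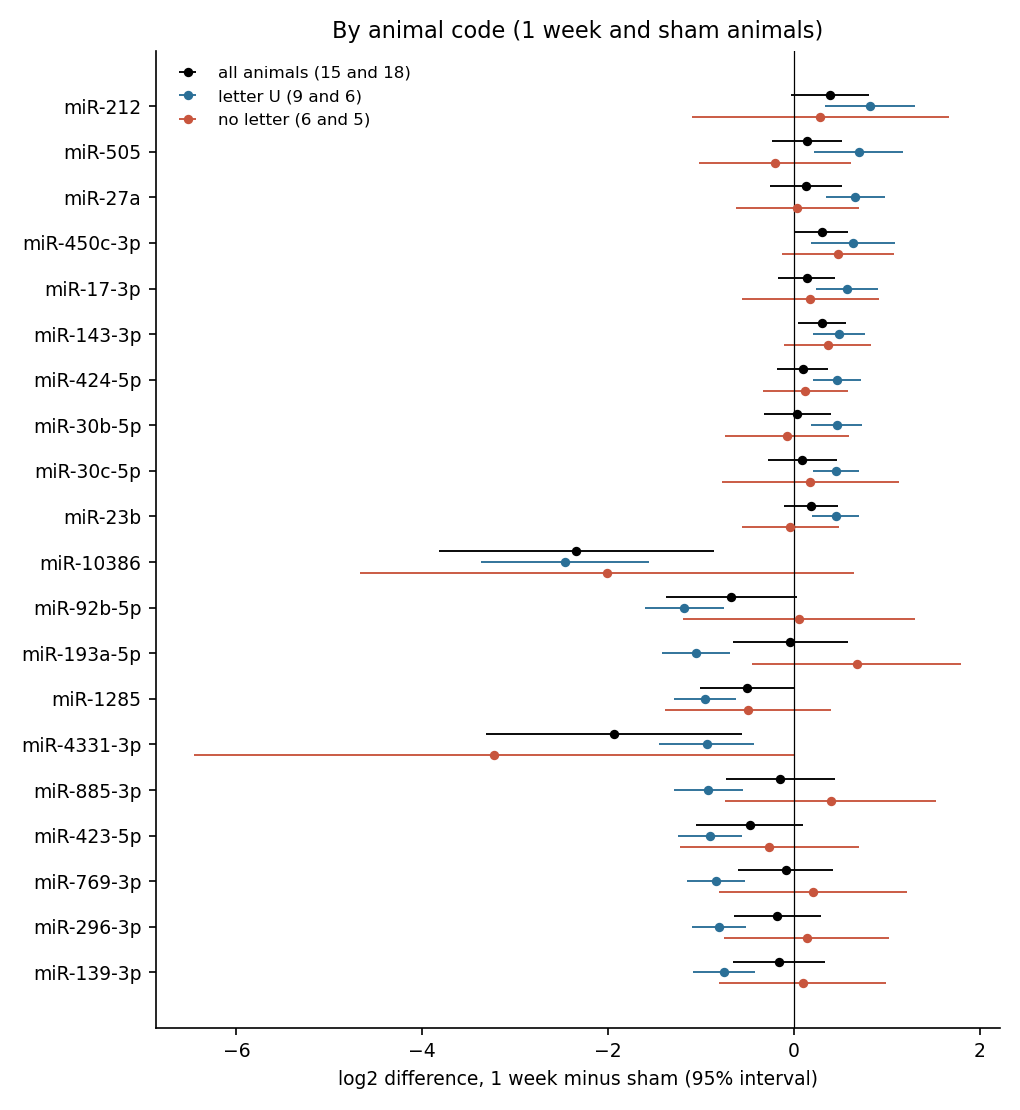
Log2 difference between 1 week and sham or naive frontal lobe with 95% intervals for the 10 largest increases and 10 largest decreases among letter U animals, shown for all animals, for letter U and for animals without a letter. The letter U intervals exclude 0 by the choice of these miRNAs, and the intervals without a letter are wider and mostly include 0.

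Both arms of a hairpin did not always move alike in these animals. Of 53 hairpins with both arms tested (miR-30c-5p belongs to 2 of them), 23 had at least 1 called arm. Arms of opposite sign occurred among hairpins with and without a called arm, and how often was not compared between them. Both arms were called in 3 hairpins, with opposite signs in 2. miR-30b-5p rose by 0.46 while miR-30b-3p fell by 0.56, from 153 through 168 to 223 CPM in sham to 106 through 121 to 131 CPM in injured animals. miR-30c-5p rose by 0.45 and miR-30c-1-3p fell by 0.57. For miR-139, miR-885 and miR-769 the 3p arm fell (-0.75, -0.92 and -0.84), while the 5p arm was at 0.16, 0.39 and -0.01 and was not called. miR-671 was the exception with both arms called in the same direction, each at -0.65.

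Animals without a letter gave no call (0 of 254, 0%, edgeR, 6 injured against 5 sham, with 5 miRNAs or 1.97% at an unadjusted p under 0.05). The injured animals of this subset were not alike. For let-7e, 4 of the 6 lay above all letter U animals at 1 week and 2 lay among them, with a range of 31399.9 through 69142 to 74354 CPM against 37109 through 53933 to 76781 CPM in the sham animals without a letter. miR-10386 and miR-193a-5p split in the same way, with 4 of 6 above every injured letter U animal. miR-193a-5p ran from 14.9 through 74.6 to 128 CPM in these injured animals and from 33.9 through 40.2 to 54.7 CPM in their sham counterparts. Its difference was 0.68 without a letter and -1.05 with the letter U. The highest 1 week values of miR-10386 and miR-193a-5p were in replicates 2, 3 and 5, libraries of 3381232, 2450177 and 3556504 counts. Replicates 6 and 15, also without a letter, held 4929334 and 7508428 counts, and injured letter U animals 6120287 to 11645571. Whether the split follows library totals was not tested.

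A direct test of whether the 1 week difference depended on the letter called no miRNA (0 of 269, 0%, edgeR interaction term, smallest adjusted p = 0.208 for miR-193a-5p, 32 miRNAs or 11.9% at an unadjusted p under 0.05). A different response of the letter classes is therefore not shown. Of the 64 letter U calls that could be tested without a letter, 43 had the same sign there. The share of equal signs over all 252 miRNAs tested in both classes was not worked out, so this count has no background beside it. Both classes in 1 fit, with the letter as a block, gave 16 calls among 269 miRNAs (5.95%), 11 higher (4.09%) and 5 lower (1.86%). The 16 included miR-21-5p (0.44), miR-143-3p (0.44), miR-138 (0.30), miR-187 (0.36), miR-9 (0.42), miR-20a-3p (1.10) and miR-450c-3p (0.58) among those higher and miR-10386 (-2.21), miR-1285 (-0.73), miR-9858-5p (-0.63), miR-125a (-0.24) and miR-361-5p (-0.24) among those lower. Within the 1 week group itself, letter U animals differed from animals without a letter in 37 of 281 miRNAs (13.2%), while sham animals of the same classes differed in 0 of 264 (0%, with 16 or 6.06% at an unadjusted p under 0.05). Letter and code start are not evenly spread over the groups: no injured animal at 1 week had the letters B, F or I, and code starts of 12, 13 and 16 occurred among sham animals only, as did 15 and 17 among injured animals only. For the sham animals with those letters, the condition and the letter cannot be told apart.

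**Figure D4:**
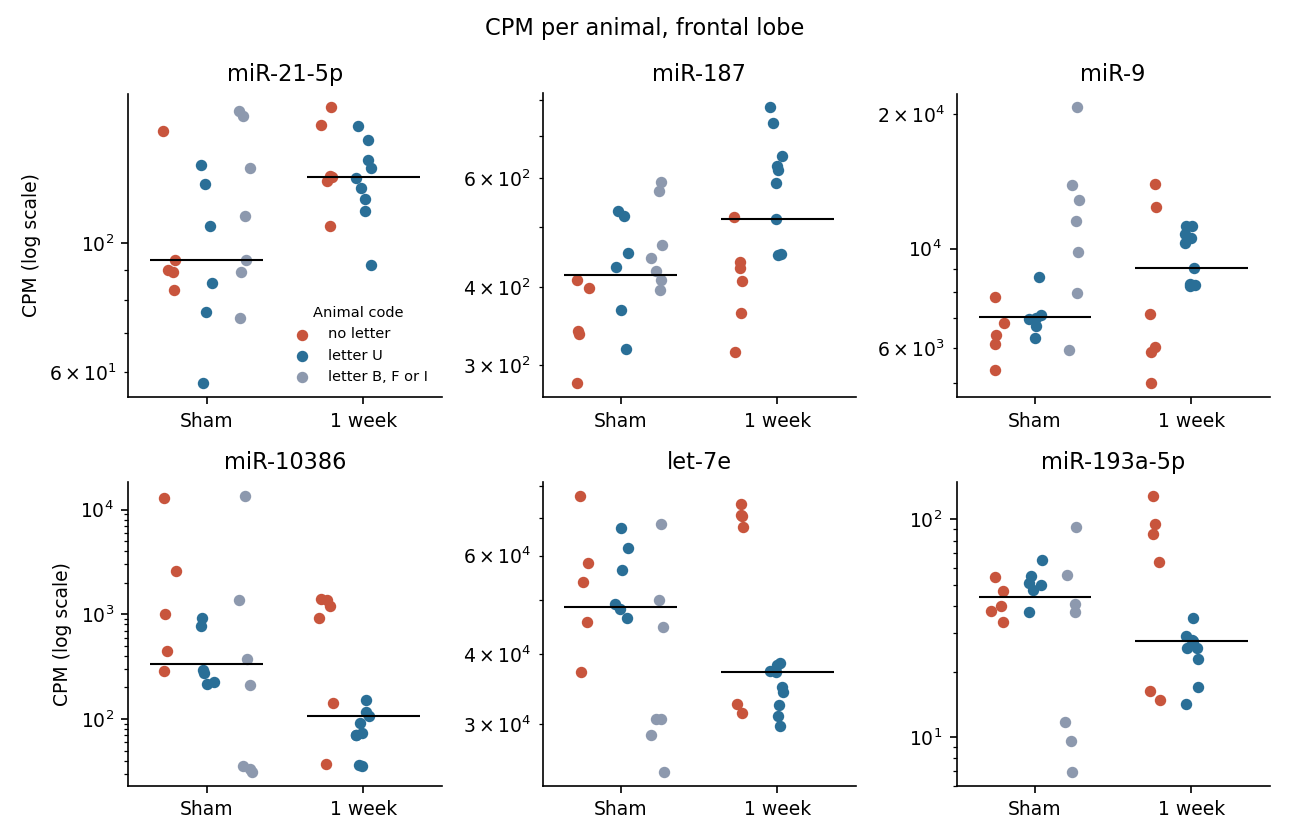
CPM per animal (log scale) for 6 miRNAs in sham or naive and 1 week frontal lobe, each point 1 animal coloured by the letter in its animal code, with group medians as lines. For let-7e and miR-193a-5p, letter U animals of both groups do not overlap, while animals without a letter or with other letters span the whole range.

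The levels at 1 week were further compared with those at 1 day. In all, 114 of 293 miRNAs differed (38.9%, edgeR), 66 higher at 1 week (22.5%) and 48 lower (16.4%). With RLE factors in place of TMM the count was 115, split into 56 higher and 59 lower, and without a filter on low counts it was 115 again, split into 53 and 62. DESeq2 called 124, 58 higher and 66 lower. All 1 day animals had the letter U. With only letter U animals at 1 week, 114 of 287 miRNAs (39.7%) differed, 59 higher (20.6%) and 55 lower (19.2%). Codes started with 11, 12 or 13 at 1 day and with 14, 15 or 17 in these 1 week animals. Time and code start therefore cannot be told apart in that comparison. Totals were lower at 1 week, with a ratio of 0.674 (permutation test, p = 0.0345, adjusted p = 0.0691).

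The differences of largest size from 1 day were toward higher levels at 1 week. miR-139-3p ran from 108 CPM through 174 to 254 at 1 day and from 215 through 418 to 1193 at 1 week, with a narrow overlap (1.65 ± 0.31, adjusted p = 0.0002). miR-193a-5p ran from 4.92 through 11.5 to 18.6 CPM and from 14.3 through 27.8 to 128 CPM (1.92 ± 0.38), and miR-885-3p from 27.4 through 44.9 to 80.2 CPM and from 54.0 through 115 to 519 CPM (1.86 ± 0.36). At 1 week the highest values of miR-139-3p, miR-193a-5p and miR-885-3p were all in replicates 2, 3 and 5, which carry no letter. Their differences with only letter U animals at 1 week are not given here, although miR-139-3p had the smallest adjusted p there (edgeR, 4.69e-06). miR-4332 and miR-10386 had larger differences, 3.53 and 3.19, which were 1.17 and 0.96 with only letter U animals at 1 week. miR-1307, miR-769-3p, miR-423-5p, miR-296-3p and miR-7134-3p followed at 1.05 to 1.57, each with its highest 1 week value in replicate 5. The neuronal miR-124a was also higher at 1 week, by 0.36 ± 0.11 (adjusted p = 0.0071), with 5640.4 through 7018 to 9327 CPM at 1 day against the 1 week median of 9206.

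Lower at 1 week than at 1 day were miR-15b, miR-212, miR-27a, miR-27b-3p, miR-17-3p, miR-204, miR-505, miR-135, miR-148b-3p and miR-199b-5p, at -0.60 to -0.90. With only letter U animals at 1 week all of these passed except miR-505 (adjusted p = 0.0517). miR-15b ran from 228 CPM through 271 to 308 at 1 day and from 101 through 167 to 237 at 1 week, so that few animals overlapped (-0.66 ± 0.13, adjusted p = 0.0002). miR-212 ran from 12.3 through 15.9 to 18.7 CPM at 1 day and from 0.374 through 11.3 to 19.8 at 1 week (-0.62 ± 0.23, adjusted p = 0.0358), a call that was lost in 5 of 25 fits without 1 library (adjusted p up to 0.0657, without 1 day replicate 1). That of miR-135 was lost in 2 (up to 0.0692, without 1 day replicate 9). The differences of miR-9 and of miR-107, which shares its seed with miR-103, were -0.58 and -0.40. miR-21-5p did not follow: its difference between 1 week and 1 day was -0.07 (adjusted p = 0.697).

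The miRNAs named for their difference at 1 day show where the 1 week animals stood between sham and 1 day. This list was chosen on the 1 day values, both differences use the same sham animals, and the same 1 day libraries enter the comparison of 1 week with 1 day; 1 day against sham called 141 of 293 miRNAs (48.1%). For the 12 chosen as higher at 1 day, the median log2 difference from sham was 0.74 at 1 day and 0.15 at 1 week, and 10 of the 12 passed in the direct comparison of 1 week with 1 day, where 38.9% of all miRNAs did. For the 13 chosen as lower, the medians were -1.96 and -0.18, and 11 of 13 passed. The estimate was nearer to 0 at 1 week for all 25, and 0 of the 25 passed at 1 week against sham with all animals. Among letter U animals the same lists had medians of 0.59 and -0.89 at 1 week, and 8 of 12 and 11 of 13 passed, beside 23.7% of all miRNAs.

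**Figure D5:**
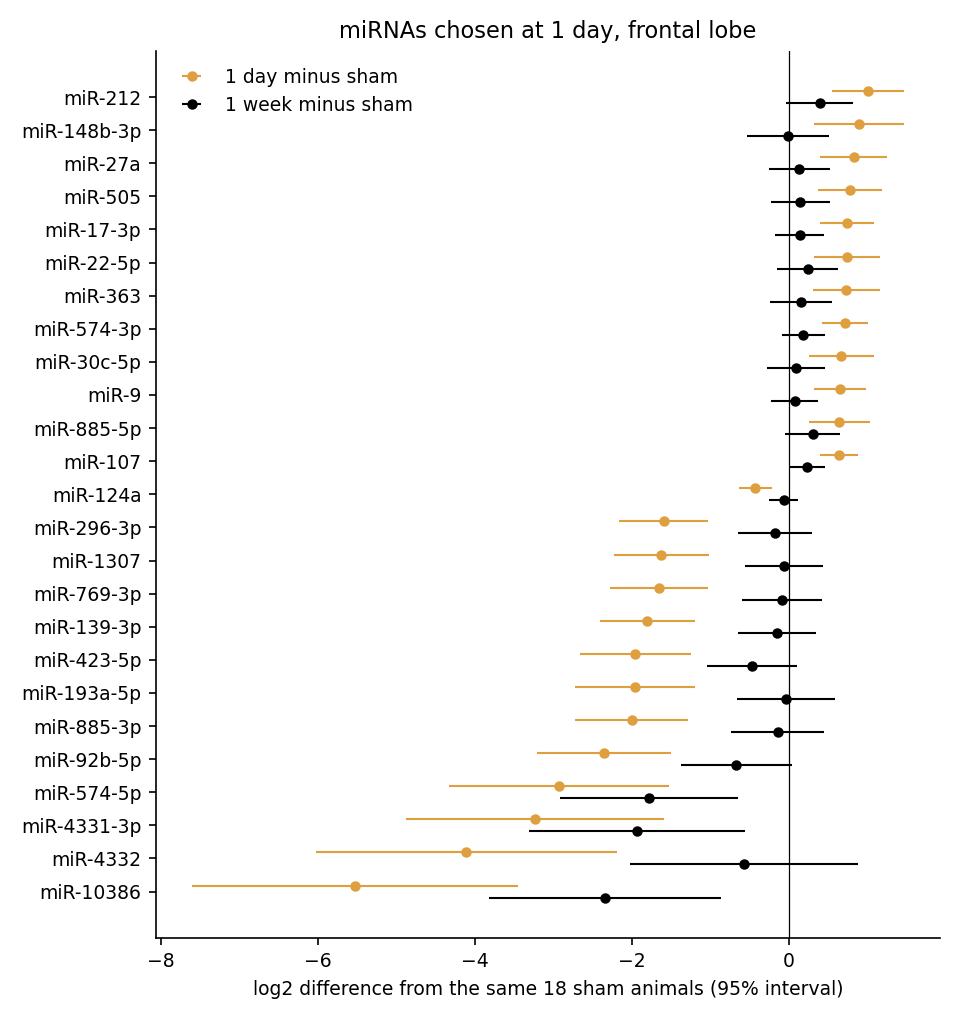
Log2 difference from the same 18 sham or naive animals, with 95% intervals, at 1 day (n = 10) and at 1 week (n = 15) for the 25 miRNAs named at 1 day. The 1 week estimate is nearer to 0 for all 25, a comparison that shares its controls and used a list chosen on the 1 day values.

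In the hippocampus and amygdala of the same 33 animals, 1 week against sham called 1 of 299 miRNAs (0.334%), miR-190a, at -1.24. In the frontal lobe miR-190a was scarce, with means of 1.27 and 2.00 CPM, and its difference was 0.18. The test of whether the 1 week difference depends on the region, with the animal as a block, called 0 of 287 miRNAs (0%, edgeR, smallest adjusted p = 0.997, 4 or 1.39% at an unadjusted p under 0.05, 0 called by DESeq2). Restricted to letter U, hippocampus and amygdala called 23 of 280 miRNAs (8.21%), 5 higher (1.79%) and 18 lower (6.43%), and the region test again called 0 (of 292, with 11 or 3.77% at an unadjusted p under 0.05). let-7e had -0.62 there (adjusted p = 0.0033) beside -0.68 in the frontal lobe, and miR-505, miR-30c-5p and miR-187 had 0.70, 0.54 and 0.30, each called. miR-193a-5p, at -0.60, was not (adjusted p = 0.0930). These are a second set of libraries from the same animals, so they share whatever sets those animals apart.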

How the data were processed

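Small RNA libraries of porcine fixed, paraffin-embedded brain were analysed from the deposited table of raw counts per mature miRNA and library. Per the submitters' processing notes, the authors used Trimmomatic 0.39 and cutadapt 1.9.1 on the reads behind these counts; the sources used here state no aligner, annotation, build or use of molecular identifiers, so counts need not be independent molecules. Of 542 entries, 1 per mature name was kept, the one with the highest total, leaving 457. The 6 sets of different names with nearly equal counts stayed separate. A chi-square of 8018 (265 degrees of freedom) separated even the most alike pair of libraries, and none was treated as a repeat.

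The main test was the quasi-likelihood test of edgeR 4.0.16 (robust, TMM, filterByExpr with a minimum count of 10 and total of 15, R 4.3.3) on all 52 frontal libraries in 4 groups, 2-sided, with Benjamini-Hochberg adjustment over all miRNAs tested and a threshold of 0.05. The region test used 66 libraries of 33 animals, with the animal as a block. Intervals are 95%. DESeq2 1.42.0 and limma 3.58.1 were alternatives, and scripts were tested on simulated data. Totals were compared by permutation (100000 resamples, or exact where a group had under 10 libraries). The series design text speaks of 50 subjects and the names hold 53 animal codes, so 1 animal per code is an assumption, and p-values measure the spread between these libraries.

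Named miRNAs are those past the threshold with at least 10 CPM in either group, the 10 largest in each direction. Where fewer than 3 passed, they are the 10 with the smallest p. A panel, the miRNAs named at 1 day, and up to 3 members of each list were added. Members and lists were chosen with earlier results of these data known. Hairpin neighbours came from RefSeq, with 281 of 408 hairpins matched by name.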

Additional observations from a re-analysis of the deposited data

Results flagged for a closer look

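In 7 of 60 groups examined, 1 animal was far from the others of its group, where chance gives about 1 in 20. Among the 6 sham animals with the letter U, replicate 11 was lowest for miR-23b at 233 CPM with the next at 347, replicate 3 highest for miR-92b-5p at 19.3 CPM with the next at 10.6, and replicate 7 highest for miR-1285 at 368 CPM with the next at 219. Sham replicate 4 was lowest for miR-885-3p at 131 CPM (next 208) and for miR-423-5p at 969 CPM (next 1493). Among the 9 injured letter U animals at 1 week, replicate 8 was highest for miR-92b-5p at 8.52 CPM (next 5.75). At 1 day, replicate 1 was highest for miR-148b-3p at 20.0 CPM (next 13.3).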

How the results depend on the processing

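No call between 1 week and sham with all animals was obtained in any of the 33 fits that leave out 1 library (0 to 0 called, 14 to 29 at an unadjusted p under 0.05), with RLE factors, without let-7, without a filter, with near-identical names merged, with all deposited entries, with the log10 total as a covariate, with plain limma voom, or without libraries under 1000000. DESeq2 called 1, miR-10386 (adjusted p = 0.0481), limma voom with quality weights 52 (29 higher, 23 lower), the letter as a block 16 and letter U alone 66. Of the 52, 39 were among the 66, which is 75% of the first and 59.1% of the second. Both fits share libraries, and both counts hold miR-9 under 3 names. At 1 week the weights ran from 0.769 to 2.31 in letter U animals and from 0.340 to 1.15 in animals without a letter. The overlap is therefore partly built in and is not separate support. For letter U, added after seeing the data, the log10 total as a covariate gave 2, libraries under 9000000 counts 15, and codes that start with 14 gave 17, all lower. Leaving out 1 library gave 46 to 74, with code stems shared among injured animals not modelled. The ratio of totals of 1.61 in letter U passed where 1.67 did not. For 1 week against 1 day, leaving out 1 library gave 81 (without 1 day replicate 9) to 121 calls. The cause of these differences was not tested. Of 113 named miRNAs, 73 changed sign under some setting while uncalled. The labels carry no replicate numbers that could pair the groups. In all, 3 stems of the animal codes are shared by 3 sham and 6 injured animals, and a block for each stem left 0 calls and 4 at an unadjusted p under 0.05. Depth limits the smallest sham library most.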
